A study of Mus musculus with 11 samples.

Results

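The response to epidermal growth factor (EGF) was measured in mouse pancreatic acinar cells of the 266-6 line that carried a non-targeting siRNA. It comprises 5 of the 11 RNA-seq libraries of the series, chosen by their labels alone: 3 libraries with EGF (siCtrl_EGF) and 2 with vehicle (siCtrl). Both groups were given the control siRNA NT5 for 48 h and kept in serum-free medium overnight. The siCtrl_EGF cells then received EGF at 40 ng/ml for 8 h, and the siCtrl cells received the 0.1% BSA vehicle for the same 8 h. No concentration of the control siRNA is recorded. The other 6 libraries, with siRNAs against Arid1a and with or without EGF, enter here only through the shared estimate of the spread and, for some genes, as a second set of values. Poly(A) RNA was sequenced with a kit that does not mark strand, so reads of overlapping or antisense genes cannot be told apart. All libraries come from 1 transformed cell line, and the labels do not give the origin of the replicates: a p here reflects how far these particular libraries vary, which may be technical variation alone.

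EGF binds the receptor tyrosine kinase EGFR and signals through the RAS to ERK cascade and through PI3K, which switch on early transcription factor genes and, through them, later waves of genes. Acinar cells make and store digestive enzymes and release them when secretagogues such as cholecystokinin and acetylcholine raise calcium in the cell. In the exocrine pancreas, sustained signalling from EGFR is known for its part in the loss of acinar identity and the gain of duct-like features.

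The libraries held 13547278 to 16796787 counted reads with EGF and 14059719 to 19773007 with vehicle. Levels are CPM, counts scaled to a common library size after adjusting it with TMM factors, and changes are fitted log2 differences of siCtrl_EGF over siCtrl with their standard error. A gene was called when its edgeR quasi-likelihood p, adjusted by Benjamini-Hochberg over the 13343 genes tested, was under 0.05. The 2 siCtrl libraries stood further apart than any pair of siCtrl_EGF libraries, with a chi-square per degree of freedom of 10.9 between them and of 2.54 to 4.6 between pairs with EGF. Fewer genes were called without siCtrl replicate 1, which leaves 1 vehicle library, than without any other library. A sizeable part of the calls with all libraries was then lost. No called gene was called in the opposite direction in any fit. With 3 against 2 libraries an exact permutation test of a single gene cannot go below p = 0.1, so the model across genes was used.

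The defining markers of acinar cells were present: 18 of 20 listed acinar genes were tested, and their summed level was 14846 to 16145 CPM with EGF and 16630 to 18655 CPM with vehicle. Most of that sum was the chymotrypsinogen gene Ctrb1, at 11912, 12555 and 11332 CPM with EGF, against 14335 and 12408 CPM with vehicle (log2 change -0.16 ± 0.08, edgeR adjusted p = 0.15). Pancreatic amylase Amy2a5 had no read in any of the 5 libraries. Markers of immune cells summed to 6.91 to 8.04 CPM with EGF and 5.82 to 6.09 CPM with vehicle, with 8 of 15 at 0 reads, and markers of endothelial cells to 47.1 to 57.6 CPM with EGF and 50.6 to 52.6 CPM with vehicle. Fibroblast and stellate markers summed to 567 to 592 CPM with EGF and 592 to 615 CPM with vehicle, of which Pdgfrb and Vim made up most. The islet list summed to 1156 to 1199 CPM with EGF and 748 to 801 CPM with vehicle through the granule protein gene Chga, while both insulin genes and glucagon had no read. The duct list summed to 297 to 325 CPM with EGF and 188 to 232 CPM with vehicle. In such bulk libraries, fewer cells of a type and less RNA per cell cannot be told apart.

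EGF changed 4744 genes, 35.6% of those tested. With EGF 2237 genes were higher (16.8%) and 2507 were lower (18.8%). Most changes were small, with a median log2 change of 0.45 among the genes called higher and -0.47 among those called lower. At least 2-fold changes were called for 672 genes (5.04%), 333 higher and 339 lower, and at least 4-fold changes for 86 higher and 36 lower. The libraries of the groups did not overlap for 99.4% of the called genes, against 55.5% of all genes tested. Summed over genes, the called rises came to 76750 CPM and the called falls to -43748 CPM. Over all genes tested, the scaled levels summed to 1034860 to 1040920 CPM with EGF and 999423 to 1006650 CPM with vehicle. The TMM factors were 0.9607 to 0.9663 with EGF and 1.001 and 0.9934 with vehicle, so the balance of gain and loss depends on that scaling.

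**Figure D1:**
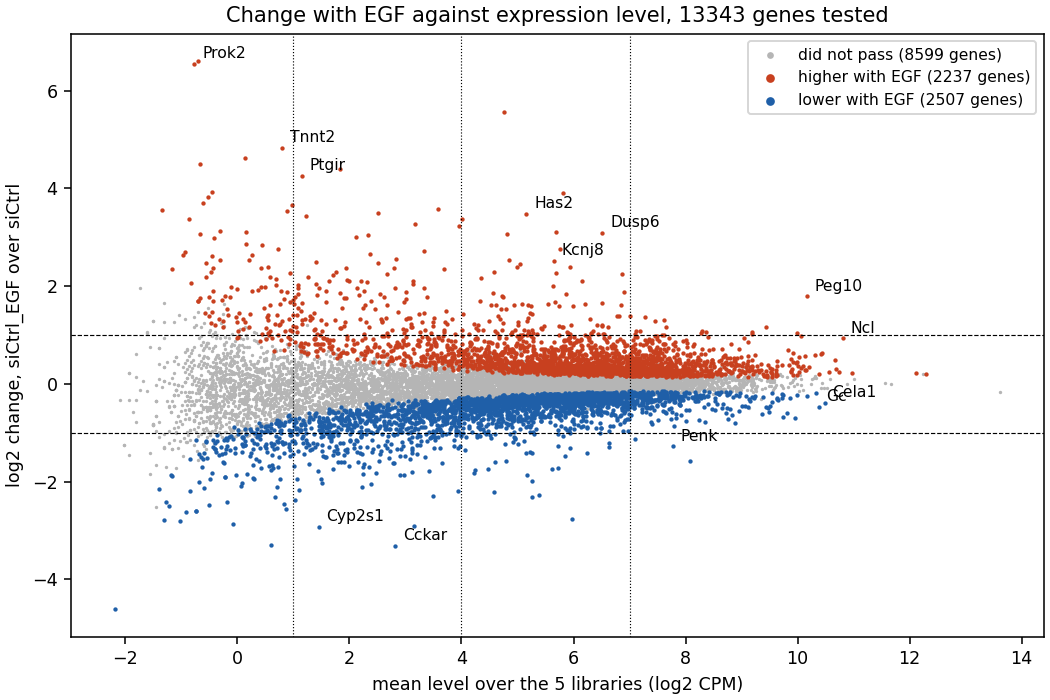
Log2 change with EGF (vertical axis) against mean level over the 5 libraries in log2 CPM (horizontal axis), 1 point per gene, with genes called higher in red, called lower in blue and the rest in grey. Dotted lines mark the level classes and dashed lines 2-fold changes; the largest changes sit at low levels, and above 7 log2 CPM Peg10 has the highest point.

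The size of called changes differed by level of expression. Of 1506 genes with a mean level under 1 log2 CPM, 18.6% were called and 15.1% were called with at least a 2-fold change, so most calls there were large. Of 6628 genes between 4 and 7 log2 CPM, 37.5% were called and 2.2% at least 2-fold. Among the 2150 genes at 7 log2 CPM or more, 42.0% were called, but 0.884% by at least 2-fold and none by 4-fold. The median standard error of the log2 change was 0.385 in the lowest class and 0.0679 in the highest, and no change under 0.5 was called in the lowest class. Direction also differed by level: among the most abundant genes 473 small rises and 236 small falls were called, whereas between 1 and 4 log2 CPM the changes of 0.5 to 1 were 174 rises and 422 falls. The genes with called 2-fold changes were weakly expressed without EGF, with a median of 2.24 CPM for those that rose and 4.49 CPM for those that fell, against 34.3 CPM for all genes tested.

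**Figure D2:**
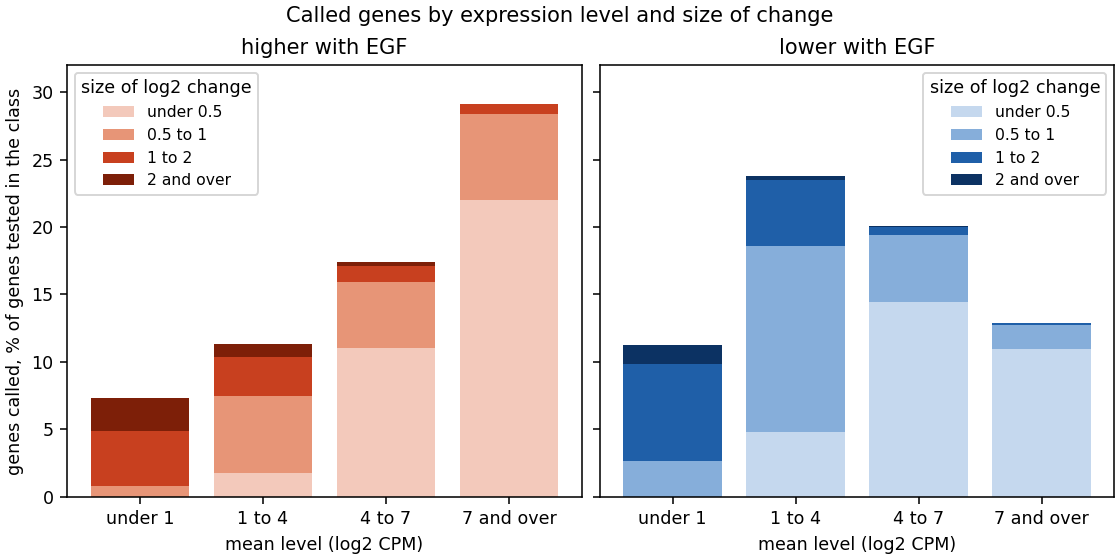
Share of tested genes called higher (left panel) and lower (right panel) with EGF, in percent, by mean level in log2 CPM (horizontal axis) and size of the log2 change (shades). Rises take a growing share as the level grows, whereas the share of falls is highest from 1 to 4 log2 CPM.

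Among barely expressed genes, Prok2, which encodes the secreted peptide prokineticin 2, had 35 reads over the EGF libraries and none over the vehicle libraries, at least 9.15-fold higher against a floor of 3 reads over the vehicle group. Tnnt2, cardiac troponin T, had 120 reads with EGF and 3 with vehicle, a ratio of 31.4 with an exact 95% interval of 10.5 to 154 that covers counting error only. In the other direction, Slc10a4, a relative of the bile acid carriers, stood at 0.217, 0.37 and 0.231 CPM with EGF, against 2.68 and 3.01 CPM with vehicle (log2 change -3.30 ± 0.30, edgeR adjusted p = 1.1e-06).

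One class up, Megf10, a receptor for the clearance of dying cells, stood at 6.66, 5.74 and 5.07 CPM with EGF, against 0.253 and 0.287 CPM with vehicle (log2 change 4.40 ± 0.27, edgeR adjusted p = 2.2e-08). Cyp2s1, a cytochrome P450, stood at 0.579, 0.74 and 0.692 CPM with EGF, against 4.80 and 5.59 CPM with vehicle (log2 change -2.92 ± 0.26, edgeR adjusted p = 9.1e-07). At middling levels, Samd5 had 49.0, 31.7 and 55.4 CPM with EGF, against 0.708 and 1.29 CPM with vehicle (log2 change 5.55 ± 0.44, edgeR adjusted p = 3.7e-06), the largest change among genes between 4 and 7 log2 CPM. Pcdh8, a protocadherin adhesion gene, fell most in that class, to 16.1, 21.8 and 17.9 CPM with EGF, against 124 and 130.2 CPM with vehicle (log2 change -2.76 ± 0.10, edgeR adjusted p = 1.0e-10).

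In the most abundant class the largest rise was that of Peg10, an imprinted gene derived from a retrotransposon. Its level was 1724, 1376 and 1731 CPM with EGF, against 387 and 546 CPM with vehicle (log2 change 1.79 ± 0.19, edgeR adjusted p = 3.1e-05), so it also gained the most CPM of any gene named. Next by CPM gained were Ncl, the nucleolar protein of ribosome assembly, at 2091, 2325 and 2208 CPM with EGF against 1209 and 1108 CPM with vehicle, the chaperone Hsp90ab1, the elongation factor Eef2 and the semaphorin receptor Plxnd1. Hsp90ab1 and Eef2 gained by small changes of 0.23 ± 0.05 and 0.20 ± 0.05 log2 on a high level, and without siCtrl replicate 1 that of Eef2 was 0.16 (adjusted p = 0.073). Among genes called lower, Reg1, a lectin-like protein of acinar secretions, lost the most CPM, with 757, 785 and 831 CPM with EGF, against 1296 and 1264 CPM with vehicle. The vitamin D carrier Gc came next and stood at 1107, 1237 and 1114 CPM with EGF, against 1675 and 1507 CPM with vehicle. Sel1l, which helps to remove misfolded proteins from the endoplasmic reticulum, the elastase Cela1 and vitronectin Vtn followed, with log2 changes of -0.68 ± 0.08, -0.39 ± 0.08 and -0.60 ± 0.07.

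**Figure D3:**
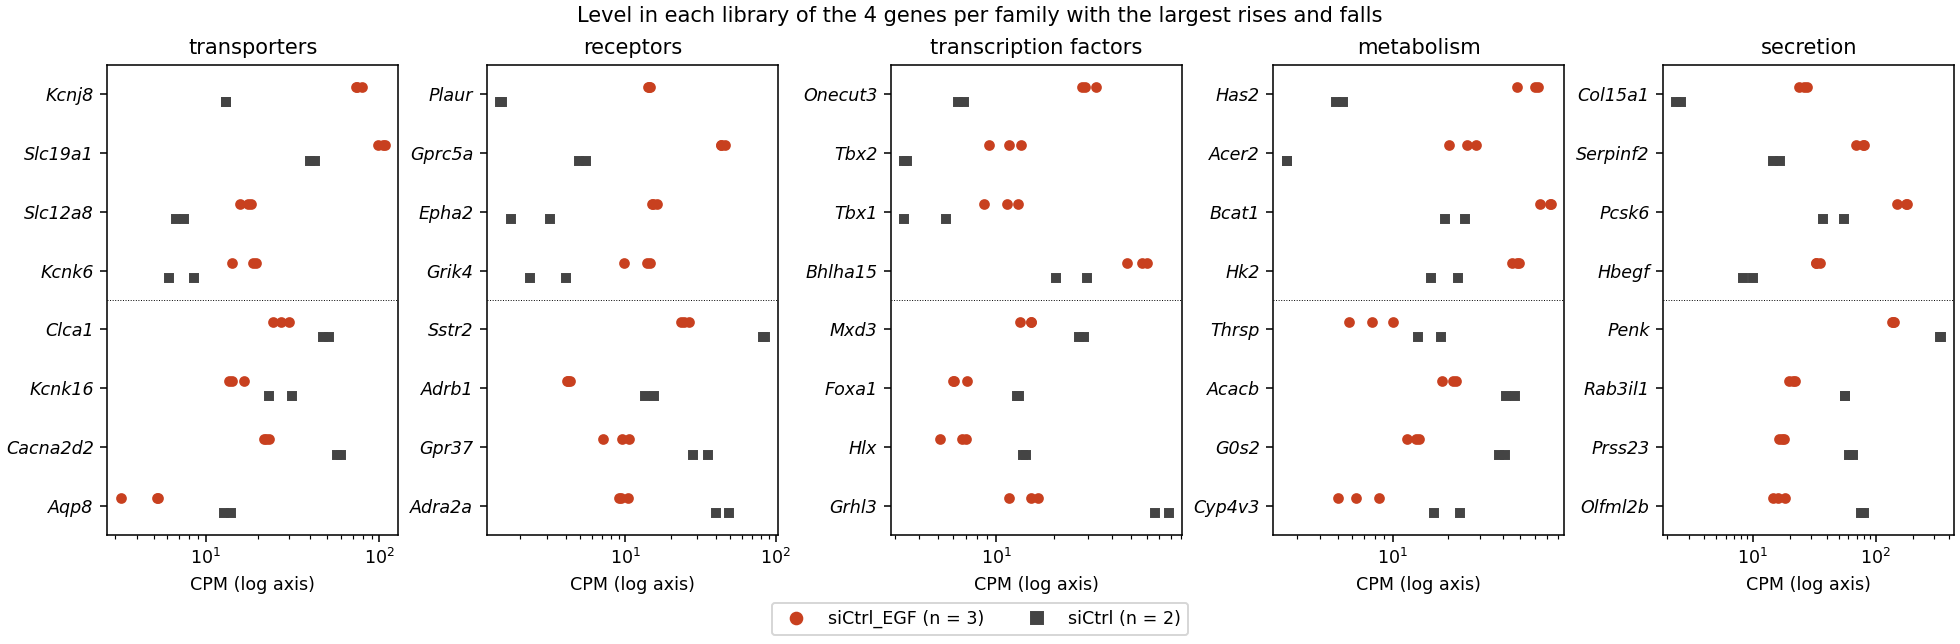
CPM in each library, on a log axis, of the 4 genes with the largest called rises (upper rows) and the 4 with the largest called falls (lower rows) in each of 5 gene families, among genes with a mean of at least 3 log2 CPM. Red circles are the 3 siCtrl_EGF libraries and grey squares the 2 siCtrl libraries. They do not overlap in any row because only genes without overlap between the groups were eligible.

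Of 443 tested transporter and channel genes, 98 rose and 90 fell, 42.4% called against 35.6% of all genes. The clearest rise was that of Kcnj8, which encodes the pore subunit Kir6.1 of a potassium channel that closes when ATP is high. Its level was 73.3, 74.2 and 79.4 CPM with EGF, against 13.1 and 13.1 CPM with vehicle (log2 change 2.53 ± 0.09, edgeR adjusted p = 1.6e-10). Abcc9, which encodes the partner subunit SUR2, stood at 9.05, 7.96 and 8.69 CPM with EGF, against 2.28 and 2.79 CPM with vehicle (log2 change 1.77 ± 0.19, edgeR adjusted p = 7.5e-06). The other pore and partner subunits of such channels, Kcnj11 and Abcc8, changed by 0.26 ± 0.06 and 0.25 ± 0.07, and that of Abcc8 was no longer called without siCtrl replicate 1 (0.13) or siCtrl_EGF replicate 1 (0.23). Kcnj11 lay at 195 to 218 CPM with EGF, against 171 and 175 CPM with vehicle, and Abcc8 at 303 to 326 CPM with EGF, against 243 and 287 CPM with vehicle. Per length, in the authors' deposited FPKM of the EGF libraries, Kcnj8 (34.1 FPKM) lay below Kcnj11 (67.4) and Abcc9 (1.11) far below Abcc8 (58.2). Of the remaining potassium channel genes, Kcnk6 rose by 1.23 ± 0.19, whereas Kcnk16, a channel known from islets, fell by 0.88 and Kcnh2 fell by 0.71. In the whole list of 48 tested potassium channel genes 11 rose and 13 fell, and 7 rose without siCtrl replicate 1.

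Carriers of amino acids rose more often than they fell: 16 of 36 tested were higher and 6 lower, with a median log2 change of 0.16 against -0.03 over all genes tested, and 2 were lower without siCtrl replicate 1. The heterodimer that imports large neutral amino acids rose in both parts. Slc7a5, its transport subunit, stood at 222, 207 and 219 CPM with EGF, against 122 and 135 CPM with vehicle (log2 change 0.75 ± 0.07, edgeR adjusted p = 8.5e-07), and Slc3a2, the other subunit, changed by 0.51 ± 0.07. Carriers for cationic amino acids (Slc7a1, 0.95), for taurine (Slc6a6, 0.82) and for small neutral amino acids and glutamine (Slc1a4, 0.79, and Slc1a5, 0.47) also rose. Among the falls was Slc7a4 (-0.72). The summed level of the list was 3495 to 3639 CPM with EGF and 2880.46 to 2974 CPM with vehicle.

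Carriers of sugars, lactate and vitamins moved in part with them. Slc16a1, the lactate and pyruvate carrier MCT1, stood at 119, 119 and 115 CPM with EGF, against 68.1 and 62.5 CPM with vehicle (log2 change 0.85 ± 0.06, edgeR adjusted p = 2.2e-07), and the glucose carrier Slc2a1 (GLUT1) changed by 0.60 ± 0.09. Slc2a4, the glucose carrier that insulin moves to the surface in muscle and fat, lay at 0.217 to 0.864 CPM with EGF and at 2.53 and 2.87 CPM with vehicle. Slc19a1, the reduced folate carrier, had 105, 108 and 98.4 CPM with EGF, against 42.8 and 40.0 CPM with vehicle (log2 change 1.32 ± 0.07, edgeR adjusted p = 4.5e-09). It was joined by Slc5a6, a carrier of biotin and pantothenate (1.2 ± 0.12), and by the nucleoside carrier Slc29a1 (0.74). In that list of 35 carriers of nucleosides, nucleotide sugars and vitamins 11 rose and 4 fell, and 7 rose without siCtrl replicate 1. Both carriers of phosphate with sodium rose, Slc20a1 by 0.73 ± 0.06 and Slc20a2 by 0.64. Of 26 tested organic ion carriers 3 rose and 9 fell, Slc10a4 among the falls. These were 11.5% and 34.6%, against 16.8% and 18.8% of all genes tested.

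Genes that set calcium in the acinar cell were called in both directions. Itpr3, the inositol trisphosphate receptor that releases calcium near the secretory pole of acinar cells, had 419, 379 and 369 CPM with EGF, against 181 and 198 CPM with vehicle (log2 change 1.04 ± 0.11, edgeR adjusted p = 1.0e-05). The calcium pump of the plasma membrane Atp2b1 (0.76) and that of the endoplasmic reticulum Atp2a2 (0.37) rose, whereas Stim1 (-0.40), the sensor of emptied stores, fell. Cacna2d2, an accessory subunit of voltage-gated calcium channels, fell to 21.5, 23.1 and 22.1 CPM with EGF, against 56.6 and 60.4 CPM with vehicle. Of 56 tested genes for calcium, sodium and TRP channels 6 rose and 14 fell, and fewer fell without siCtrl replicate 2. These were 10.7% and 25.0%, against 16.8% and 18.8% of all genes tested. The water channel Aqp8, found on the apical side of acinar cells, stood at 5.29, 5.24 and 3.23 CPM with EGF, against 13.96 and 12.8 CPM with vehicle (log2 change -1.53 ± 0.18, edgeR adjusted p = 1.2e-05). Iron import and export went opposite ways, with the transferrin receptor Tfrc higher by 0.48 ± 0.06 and the exporter ferroportin Slc40a1 at 2.46, 2.78 and 2.23 CPM with EGF, against 7.48 and 5.52 CPM with vehicle. Clca1, lower by a log2 change of -0.86 ± 0.09, belongs to a cluster of near-identical genes between which reads may be shared, so its value is uncertain.

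**Figure D4:**
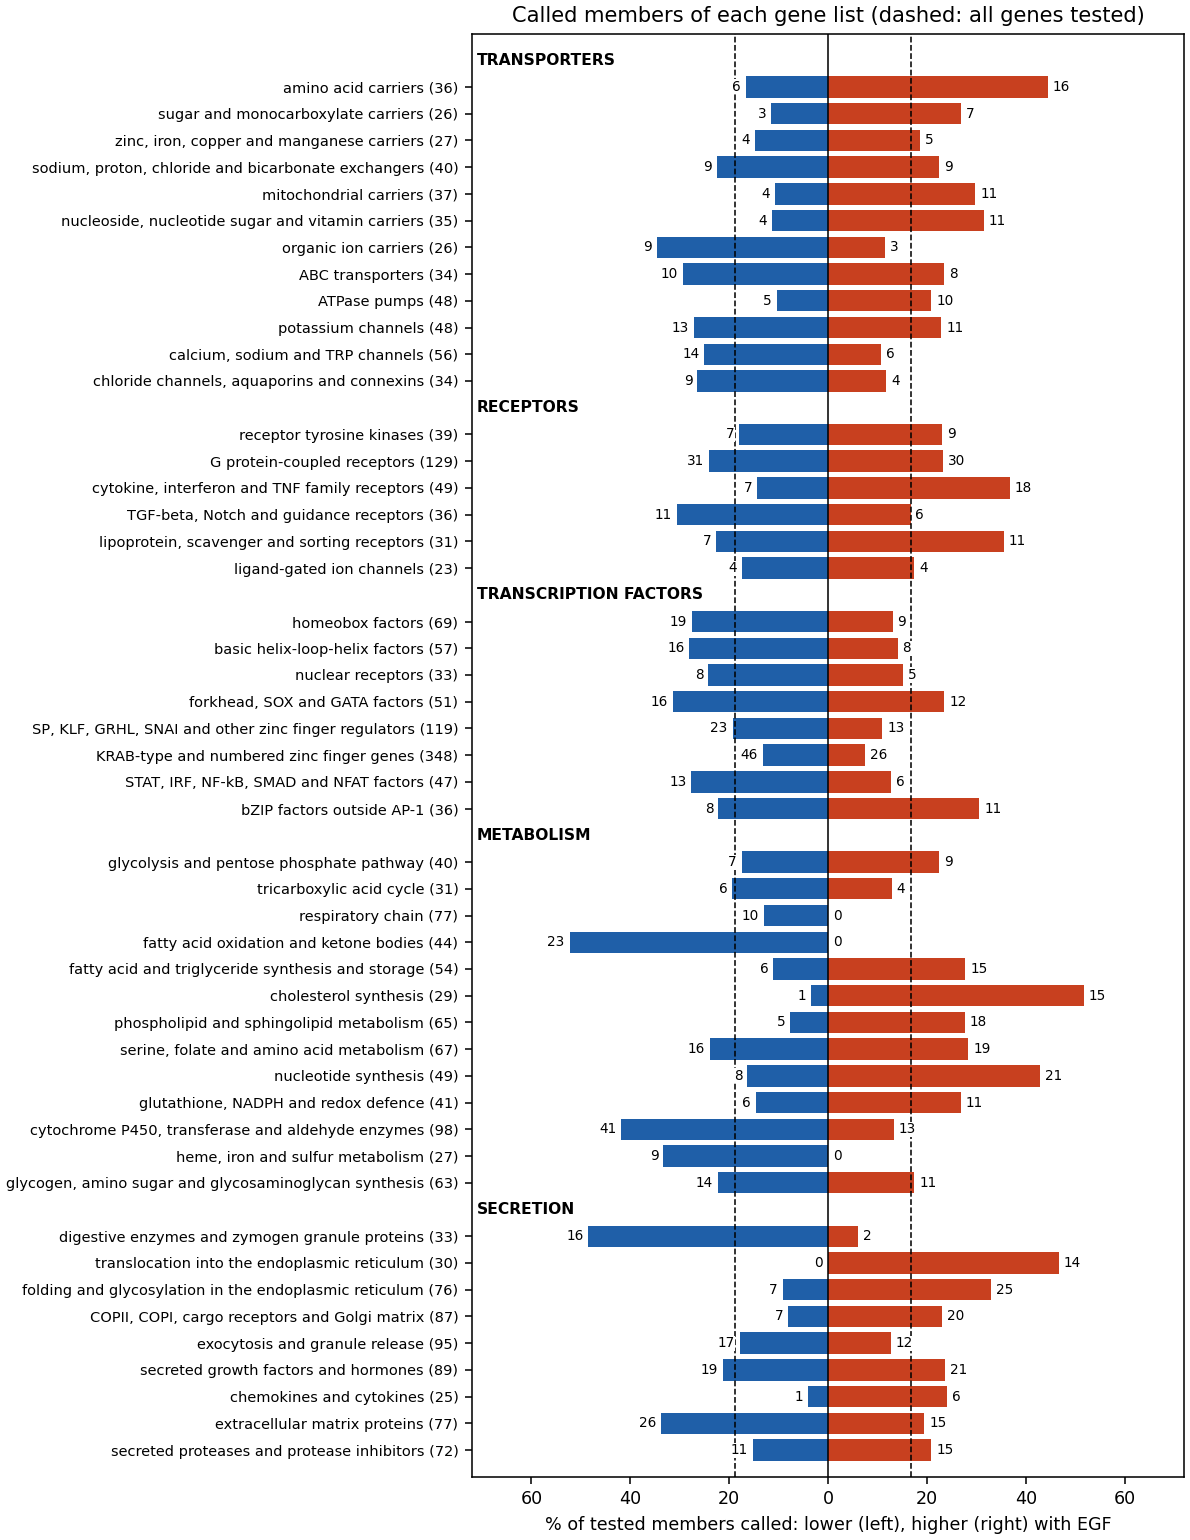
Percent of tested members called higher (red, right) and lower (blue, left) with EGF in each of 48 gene lists, with the number of tested members in brackets and the called counts beside the bars. Dashed lines mark the same shares over all genes tested (16.8% higher and 18.8% lower); cholesterol synthesis, translocation into the endoplasmic reticulum and amino acid carriers reach furthest right, and fatty acid oxidation and digestive enzymes furthest left.

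Receptors, through which cells sense hormones, growth factors and neighbours, were called in both directions. Of 306 tested, 78 rose and 67 fell (47.4% called), and 18.3% were called with at least a 2-fold change, against 5.04% of all genes. Their median level was 3.38 log2 CPM, against 5.1 for all genes tested. G protein-coupled receptors, which sense hormones and transmitters, were the longest list, with 30 of 129 higher and 31 lower, of which 13 and 17 were at least 2-fold.

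Receptors for secretagogues of the acinar cell were among the falls. Cckar, the cholecystokinin receptor that drives enzyme release in rodents, stood at 1.52, 1.48 and 1.31 CPM with EGF, against 10.97 and 18.4 CPM with vehicle (log2 change -3.32 ± 0.35, edgeR adjusted p = 1.1e-05). The 2 vehicle libraries differ between themselves, yet both lie well above every EGF library. Chrm2, a muscarinic acetylcholine receptor, lay at 0.769 to 0.942 CPM with EGF, against 2.73 and 4.30 CPM with vehicle. The main muscarinic receptor of acinar cells, Chrm3, and the secretin receptor Sctr had too few reads to be tested. Vipr1, a receptor for vasoactive intestinal peptide, rose by 0.63 ± 0.10.

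Receptors for somatostatin, which couple to inhibitory G proteins, were called in both directions. Sstr2 stood at 24.6, 26.5 and 23.4 CPM with EGF, against 82.4 and 84.5 CPM with vehicle (log2 change -1.75 ± 0.07, edgeR adjusted p = 3.0e-10). Sstr1 (-1.42) and Sstr5 (-1.16) fell too, whereas Sstr3 rose by 1.37 ± 0.35 at 1.01 to 1.31 CPM with EGF, against 0.455 and 0.43 CPM with vehicle, and was not called without siCtrl replicate 1 (1.41 ± 0.51). The adrenergic receptor gene Adra2a had 9.34, 10.4 and 8.99 CPM with EGF, against 40.3 and 48.6 CPM with vehicle (log2 change -2.21 ± 0.11, edgeR adjusted p = 4.1e-09). Adrb1, which couples to stimulatory G proteins, fell to 4.27, 4.13 and 4.07 CPM with EGF, against 15.4 and 13.5 CPM with vehicle. Gpr37, an orphan receptor, changed by -1.81 ± 0.15.

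The receptors that rose included that for prostacyclin, Ptgir, at 3.91, 2.84 and 4.07 CPM with EGF and 0.101 and 0.287 CPM with vehicle (log2 change 4.26 ± 0.37, edgeR adjusted p = 7.5e-07). Ptgs2, the inducible enzyme that starts prostaglandin synthesis, stood at 5.50, 5.43 and 5.92 CPM with EGF, against 1.26 and 1.29 CPM with vehicle. Both receptors of prokineticins rose beside their ligand Prok2: Prokr1 lay at 6.42 to 7.07 CPM with EGF, against 1.31 and 2.44 CPM with vehicle, and Prokr2 had 35 reads with EGF and 3 with vehicle, a ratio of 9.15 with an exact 95% interval of 2.88 to 46.5 for counting error. Gprc5a, a receptor with no known ligand, stood at 43.5, 43.0 and 45.7 CPM with EGF, against 5.46 and 4.94 CPM with vehicle (log2 change 3.07 ± 0.11, edgeR adjusted p = 1.2e-10). F2r, a receptor that thrombin switches on, was higher by 0.61.

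Receptor tyrosine kinases were called in both directions. Of 39 tested, 9 rose and 7 fell, and the rises numbered 2, 4 and 5 without siCtrl replicate 1, siCtrl_EGF replicate 1 and siCtrl_EGF replicate 2. The receptor of EGF itself, Egfr, stood at 115, 88.2 and 102 CPM with EGF, against 55.4 and 78.6 CPM with vehicle (log2 change 0.61 ± 0.18, edgeR adjusted p = 0.019), and this call was lost without siCtrl replicate 1 (0.36 ± 0.20), without siCtrl_EGF replicate 1 (0.51 ± 0.18), and without a filter on low counts (0.63 ± 0.21, adjusted p = 0.071). Its partner Erbb3 lay at 2.17, 2.71 and 2.77 CPM with EGF, against 6.02 and 11.1 CPM with vehicle (log2 change -1.71 ± 0.31, edgeR adjusted p = 0.00079), and Erbb2 did not pass (-0.25 ± 0.12). Hbegf, a ligand of EGFR that is shed from the cell surface, rose to 32.5, 35.3 and 32.7 CPM with EGF, against 10.0 and 8.24 CPM with vehicle. Fgfr2, a fibroblast growth factor receptor of epithelia, had 28.1, 27.9 and 25.4 CPM with EGF, against 89.3 and 89.8 CPM with vehicle (log2 change -1.72 ± 0.07, edgeR adjusted p = 7.6e-10), and Fgfr3 changed by -0.72 ± 0.06. Epha2, an ephrin receptor, stood at 15.1, 15.2 and 16.1 CPM with EGF, against 1.72 and 3.15 CPM with vehicle (log2 change 2.72 ± 0.20, edgeR adjusted p = 1.6e-07).

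Receptors for cytokines and tumour necrosis factors rose more often than they fell, 18 against 7 of 49 tested, with 9 rises without siCtrl replicate 1. Tnfrsf12a, the receptor of the cytokine TWEAK, stood at 65.7, 75.1 and 72.3 CPM with EGF, against 18.5 and 16.9 CPM with vehicle (log2 change 2.0 ± 0.09, edgeR adjusted p = 9.6e-10). Cd40 (1.88 ± 0.18) and Tnfrsf1b (1.15 ± 0.12), which relay signals to NF-kB, rose with it, and Il1rn, which the list holds although it encodes a secreted antagonist of interleukin 1, changed by 3.44 ± 0.31. From the list of scavenger and sorting receptors, Plaur, which holds the protease urokinase at the cell surface, had 14.1, 14.7 and 14.3 CPM with EGF, against 1.47 and 1.5 CPM with vehicle (log2 change 3.27 ± 0.16, edgeR adjusted p = 2.9e-09). Guidance and TGF-beta family receptors fell more often, 11 against 6 of 36, with 7 falls without siCtrl replicate 2. Nrp2 stood at 65.1, 64.0 and 66.3 CPM with EGF, against 129.5 and 173 CPM with vehicle, whereas Nrp1 (0.56), Unc5b (1.16) and Plxnd1 (0.99) rose. The signalling TGF-beta receptors Tgfbr1 and Tgfbr2 both changed by 0.72, and the co-receptor Tgfbr3 by -0.74.

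Of 760 transcription factor genes tested, 90 rose and 149 fell, 31.4% called against 35.6% of all genes tested. The share that fell, 19.6%, was near the 18.8% of all genes, and the share that rose, 11.8%, was below their 16.8%. Without siCtrl replicate 1 there were 58 rises. The 348 KRAB-type and numbered zinc finger genes had 26 higher and 46 lower (20.7% called), and a single one of them, Zfp296, changed at least 2-fold. Falls outnumbered rises among homeobox genes (9 higher and 19 lower of 69, with 4 higher without siCtrl replicate 1) and basic helix-loop-helix genes (8 higher and 16 lower of 57, with 5 higher without siCtrl replicate 1).

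Within the MYC network, the activator and its antagonists went opposite ways. Myc stood at 225, 224 and 224 CPM with EGF, against 108 and 118 CPM with vehicle (log2 change 0.99 ± 0.06, edgeR adjusted p = 1.6e-08), and its partner Max changed by 0.43 ± 0.07. The MXD genes, whose products compete with MYC for MAX, were lower: Mxd3 (-0.92), Mxd4 (-0.85), Mxd1 (-0.65) and Mxi1 (-0.41). Mycl1, a relative of Myc, was lower as well (-0.71). Mxd4 lay at 57.4, 46.3 and 49.6 CPM with EGF, against 90.0 and 93.8 CPM with vehicle.

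Regulators of pancreatic cell identity were called in both directions. Bhlha15, which encodes MIST1, a factor that scales up the secretory apparatus of acinar cells, stood at 60.1, 47.7 and 57.0 CPM with EGF, against 20.5 and 29.5 CPM with vehicle (log2 change 1.15 ± 0.15, edgeR adjusted p = 3.3e-05). Nr5a2 rose by 0.42, while Ptf1a (-0.25), the master regulator of acinar genes, and Gata6 (-0.52) were lower; without siCtrl replicate 1, Nr5a2 (0.27) and Ptf1a (-0.18) were not called, nor was Ptf1a without siCtrl_EGF replicate 1 (-0.23). Rbpjl, a partner of PTF1A, did not pass (-0.12 ± 0.06). Sox9, a factor of duct and progenitor cells, had 102, 91.5 and 105 CPM with EGF, against 38.8 and 59.3 CPM with vehicle (log2 change 1.03 ± 0.13, edgeR adjusted p = 4.3e-05), and Hnf4a changed by 0.57. Of 11 duct genes tested 4 were higher (36.4%), 1 was lower (9.09%) and 6 did not pass, against 16.8% and 18.8% of all genes tested. With DESeq2 4 were higher and none lower. Of 18 acinar genes tested 3 were higher (16.7%) and 10 lower (55.6%). The duct list, which holds Sox9, was higher in sum with EGF, as given above, and its part in such changes was not tested. A large part of that gain in sum was Sox9 itself. Onecut3 stood at 32.7, 29.0 and 27.7 CPM with EGF, against 6.83 and 6.38 CPM with vehicle (log2 change 2.17 ± 0.12, edgeR adjusted p = 7.5e-09). Of the factors known from beta cells, Nkx6-1 lay at 0.579, 0.555 and 0.922 CPM with EGF, against 3.39 and 3.72 CPM with vehicle, and Mafa (-2.17) and Nkx2-2 (-1.42) were lower too. The islet list had 3 higher and 2 lower of 8 tested, and its sum was higher with EGF, as given above. Foxa1, a forkhead factor of endoderm, lay at 6.08, 7.03 and 6.00 CPM with EGF and at 13.2 and 12.8 CPM with vehicle, while its relative Foxa2 did not pass (0.14 ± 0.06).

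Epithelial, stress and interferon regulators follow. Grhl3, a grainyhead factor of epithelial barriers, fell the most among well expressed factors, to 15.2, 16.5 and 11.6 CPM with EGF, against 78.0 and 66.1 CPM with vehicle (log2 change -2.31 ± 0.12, edgeR adjusted p = 2.6e-09). Klf4 stood at 38.7, 32.7 and 41.7 CPM with EGF, against 10.5 and 11.4 CPM with vehicle. Of the T-box genes, Tbx2 rose to 11.6, 9.19 and 13.4 CPM with EGF, against 3.34 and 3.44 CPM with vehicle, and Tbx1 changed by 1.34 ± 0.23. The list of STAT, IRF, NF-kB, SMAD and NFAT factors also holds E2f4, from outside these families. Of its 47 tested members 6 rose and 13 fell. The rises numbered 3 without siCtrl_EGF replicate 1, and were fewer too without siCtrl replicate 2. Among the falls was Stat2, which relays interferon signals, at 57.6, 62.4 and 61.7 CPM with EGF and 91.4 and 99.1 CPM with vehicle, and the interferon regulatory factors Irf7 and Irf1 had log2 changes of -0.67 and -0.43. The stress factors Atf4 and Xbp1 rose by 0.44 ± 0.06 and 0.41 ± 0.06, and Mafk, a small MAF protein that pairs with NRF2, by 1.07 ± 0.07.

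Metabolic genes were called at 42.0%, 136 higher and 151 lower of 683 tested, and the lists differed in direction. Oxidation of fatty acids lay on the falling side: 23 of 44 tested genes were lower and none was higher, with a median log2 change of -0.31. Cpt2, which frees acyl groups from carnitine inside mitochondria, stood at 34.0, 33.8 and 35.2 CPM with EGF, against 54.7 and 54.5 CPM with vehicle (log2 change -0.67 ± 0.07, edgeR adjusted p = 4.1e-06). Crat, which moves short acyl groups to and from carnitine, stood at 26.6, 28.6 and 24.7 CPM with EGF, against 41.0 and 46.9 CPM with vehicle. Falls were modest, among them Hacl1 (-0.78), Ech1 (-0.67) and Acadvl (-0.33). Cpt1a, the gate of the pathway, did not pass (-0.08 ± 0.07). Across the 5 fits that each left out a library, 16 to 24 members were lower and none higher.

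Synthesis of cholesterol lay on the rising side, with 15 of 29 genes higher and 1 lower, the cholesterol exporter of lysosomes Npc1, whose call (-0.31 ± 0.09) was lost without siCtrl replicate 2 (-0.28) and without siCtrl_EGF replicate 3 (-0.25). Lss, which closes the sterol rings, stood at 709.6, 589 and 725 CPM with EGF, against 305 and 442 CPM with vehicle (log2 change 0.85 ± 0.15, edgeR adjusted p = 9.9e-04), and Cyp51, a demethylase of the pathway, changed by 0.42 ± 0.06. Fatty acid synthesis rose at Fasn (1740, 1460 and 1613 CPM with EGF, against 857 and 1215 CPM with vehicle) and the elongase Elovl6 (0.91). Acacb, whose product malonyl-CoA restrains fatty acid uptake into mitochondria, stood at 21.5, 22.1 and 18.5 CPM with EGF, against 41.5 and 47.1 CPM with vehicle. G0s2, an inhibitor of triglyceride lipase, fell to 13.98, 13.5 and 11.9 CPM with EGF, against 38.2 and 41.3 CPM with vehicle, and Pnpla2, which encodes that lipase, changed by -0.58.

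Nucleotide synthesis rose in 21 and fell in 8 of 49 genes. Cad, the enzyme that starts pyrimidine synthesis, stood at 785, 703 and 723 CPM with EGF, against 328 and 379 CPM with vehicle (log2 change 1.06 ± 0.09, edgeR adjusted p = 3.8e-07). Purine synthesis followed with Impdh1 (1.03), Atic (0.69), Gart (0.62) and Ppat (0.55). The thymidine kinase Tk1 (-0.66) and the ribonucleotide reductase subunit Rrm1 (-0.26), both made as cells replicate DNA, were lower. Of the folate and serine enzymes that feed these pathways, Shmt1 rose to 222, 236 and 219.8 CPM with EGF, against 124 and 122 CPM with vehicle. Mthfd2 (0.64), Shmt2 (0.53) and Psat1 (0.72) also rose, and Phgdh did not pass (0.11 ± 0.09). Polyamine synthesis rose at Odc1 (0.60 ± 0.10) and Srm, at 406, 412 and 436 CPM with EGF and 199.99 and 198 CPM with vehicle.

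Serine, folate and amino acid metabolism had 19 rises and 16 falls among 67 genes. The falls included Bckdha (-0.73), Ivd (-0.67) and Dbt (-0.58), which act in the breakdown of branched-chain amino acids, whereas Bcat1, the cytosolic enzyme of the first step, stood at 73.8, 64.2 and 72.6 CPM with EGF, against 19.3 and 24.9 CPM with vehicle (log2 change 1.68 ± 0.12, edgeR adjusted p = 1.3e-07). Cbs, which commits homocysteine to cysteine, had 357, 384 and 343 CPM with EGF, against 649 and 616 CPM with vehicle. In the list of heme, iron and sulfur metabolism none was called higher and 9 of 27 lower, with 5 lower without siCtrl replicate 1 (and 1 higher) and without siCtrl_EGF replicate 3. In sugar metabolism, Hk2, the inducible hexokinase, stood at 47.8, 44.9 and 49.3 CPM with EGF, against 16.3 and 22.9 CPM with vehicle (log2 change 1.29 ± 0.12, edgeR adjusted p = 1.7e-06), and Ldha changed by 0.52. The whole glycolysis list had 9 rises and 7 falls among 40 genes, with 4 rises without siCtrl replicate 1 and 4 falls without siCtrl replicate 2 or siCtrl_EGF replicate 2. Of 77 respiratory chain genes 13% were called, 10 lower and none higher. That share was below the 35.6% called and the 18.8% lower among all genes tested. Fewer were lower without siCtrl replicate 1, and 6 and 4 without siCtrl_EGF replicate 1 and siCtrl_EGF replicate 3. With a covariate for the main component of within-group spread, an alternative added after seeing the data, 35 were lower and 1 higher.

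Members of the list of cytochrome P450, transferase and aldehyde enzymes, which also holds carbonic anhydrases, fell more often than they rose. Of 98 tested 41 were lower and 13 higher, with a median log2 change of -0.35. Cyp4v3 stood at 5.00, 8.39 and 6.30 CPM with EGF, against 23.4 and 16.9 CPM with vehicle, and glutathione transferase genes of the mu class (Gstm1, Gstm4 and Gstm7) changed by -0.40 to -0.68, although these genes are so alike that reads may be shared among them. Of the carbonic anhydrases at the cell surface, Car9 rose to 76.3, 72.9 and 78.6 CPM with EGF against 39.7 and 38.3 CPM with vehicle, and Car12 changed by 2.1 ± 0.21. Has2, which makes the matrix sugar hyaluronan at the plasma membrane, had 60.3, 48.2 and 62.2 CPM with EGF, against 4.91 and 5.37 CPM with vehicle, and Has3 changed by 1.97 ± 0.32. Acer2, a ceramidase of the Golgi, stood at 25.5, 20.3 and 28.6 CPM with EGF, against 2.63 and 2.65 CPM with vehicle (log2 change 3.22 ± 0.18, edgeR adjusted p = 1.0e-08).

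**Figure D5:**
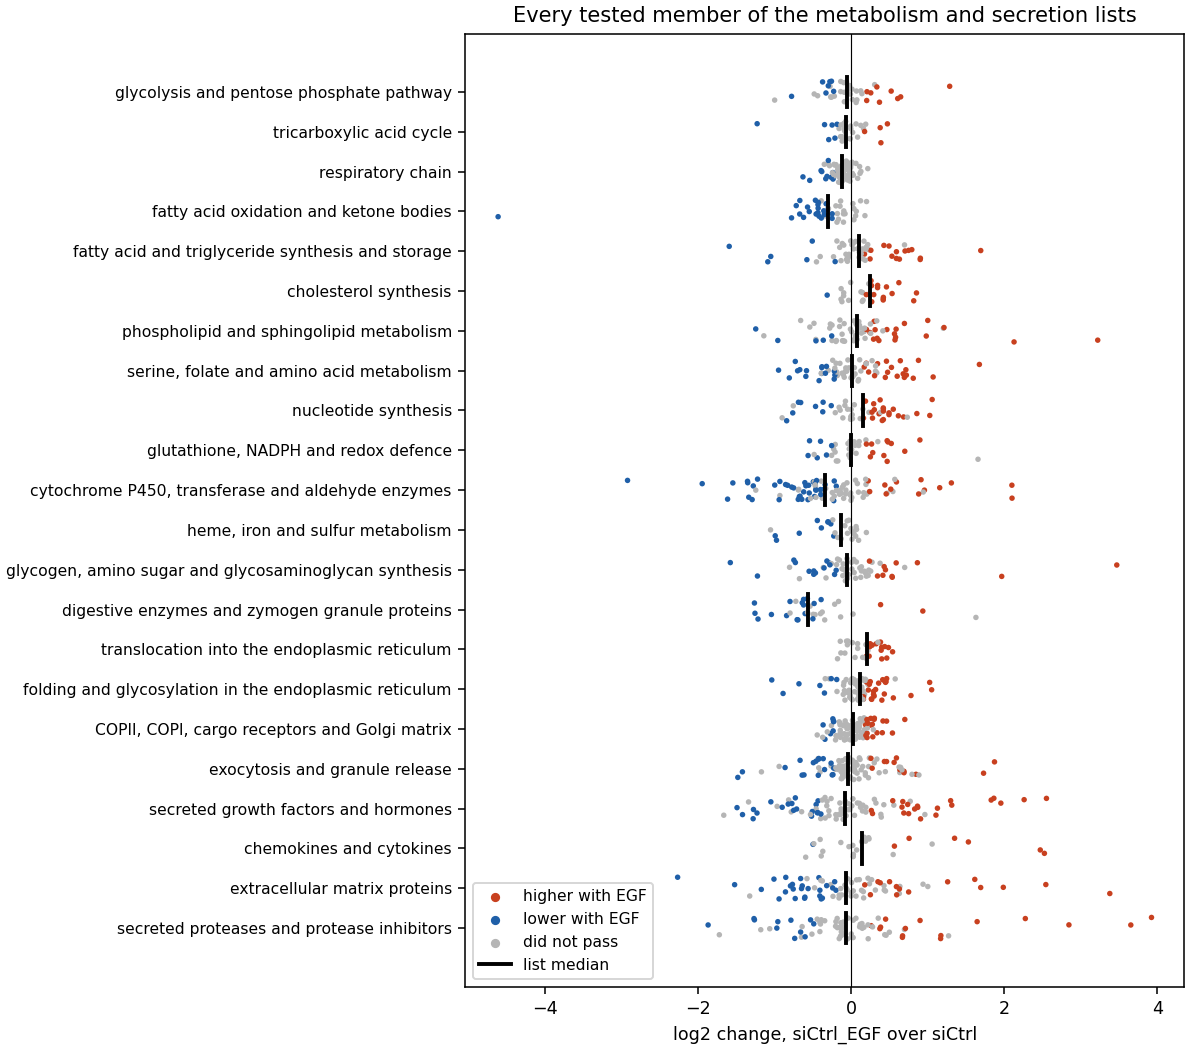
Log2 change with EGF of every tested member of the metabolism and secretion lists, 1 point per gene, red where called higher, blue where called lower and grey otherwise, with a black bar at each list's median. The medians of fatty acid oxidation, cytochrome P450 and transferase enzymes and digestive enzymes lie furthest to the left of 0, and those of cholesterol synthesis and translocation into the endoplasmic reticulum furthest to the right.

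The secretory pathway was called at 39.7%, with 127 higher and 101 lower of 575 genes, and its early steps and its cargo differed. Entry into the endoplasmic reticulum rose in 14 of 30 genes and fell in none, with a median log2 change of 0.21 and with 12 higher and 1 lower without siCtrl replicate 2. Sec61a1, the pore of the translocation channel, stood at 1219.9, 1171 and 1183 CPM with EGF, against 795 and 842 CPM with vehicle (log2 change 0.54 ± 0.05, edgeR adjusted p = 3.1e-06), and the signal recognition receptor Srpr and Srprb changed by 0.44 and 0.49. Folding and glycosylation had 25 rises and 7 falls among 76 genes, with 4 falls without siCtrl_EGF replicate 3. The chaperone Hspa5 (BiP) had 1196, 1158 and 1254 CPM with EGF, against 908 and 967 CPM with vehicle, and Fkbp11, a proline isomerase of secretory cells, 47.7, 45.8 and 44.7 CPM with EGF, against 23.5 and 21.6 CPM with vehicle. Parts of the machinery that returns misfolded proteins to the cytosol were lower, with Derl3 (-1.04), Sel1l (-0.68) and Os9 (-0.26), and so was the oxidase Ero1lb (-0.89), while Ero1l rose by 0.44. Transport between the endoplasmic reticulum and Golgi had 20 rises and 7 falls among 87 genes, with fewer rises without siCtrl replicate 1. These were 23.0% and 8.05%, against 16.8% and 18.8% of all genes tested. Sec23a, a coat protein of vesicles that leave the endoplasmic reticulum, changed by -0.37.

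Digestive enzymes and granule proteins lay on the other side, with 16 of 33 lower and 2 higher and a median log2 change of -0.57. There were 9 falls without siCtrl replicate 1 and 18 without siCtrl replicate 2, and the rises then numbered 3 and 1. The falls included lipases and their cofactor (Pnliprp1 -0.62 and Clps -0.84) and elastases (Cela1 -0.39 and Cela2a -0.64). Cpa1 stood at 591, 612 and 633 CPM with EGF, against 839 and 872 CPM with vehicle (log2 change -0.48 ± 0.07, edgeR adjusted p = 0.00016). The trypsinogen Prss2, one of a cluster of closely alike genes, was higher at 349, 358 and 339.9 CPM with EGF, against 296 and 238 CPM with vehicle, a change of 0.39 that was not called without siCtrl replicate 2 (0.24). The summed level of the list, most of it Ctrb1, was 15018 to 16422 CPM with EGF and 17190.1 to 19518 CPM with vehicle. Per length, in the authors' deposited FPKM of the EGF libraries, Ctrb1 (15752 FPKM) lay above Cela1 (1270.1), Reg1 (1252), Prss2 (504) and Cpa1 (402).

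Genes for the release of granules had 12 rises and 17 falls among 95, or 12.6% and 17.9%, against 16.8% and 18.8% of all genes tested. Rab3il1, an exchange factor for RAB3, stood at 19.8, 21.3 and 22.2 CPM with EGF, against 56.5 and 56.5 CPM with vehicle (log2 change -1.42 ± 0.08, edgeR adjusted p = 8.4e-09). Sytl4 (-1.48) and Rab27a (-0.46), which dock granules, fell too, while the syntaxin Stx1a rose to 96.4, 97.4 and 96.7 CPM with EGF, against 54.5 and 53.1 CPM with vehicle.

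Secreted signals changed in both directions, 21 higher and 19 lower of 89 growth factor and hormone genes. Stc1, a hormone of calcium and phosphate balance, stood at 80.7, 80.0 and 85.6 CPM with EGF, against 23.3 and 22.9 CPM with vehicle (log2 change 1.83 ± 0.09, edgeR adjusted p = 2.0e-09). Penk, the precursor of enkephalins, fell to 137, 141 and 139 CPM with EGF, against 333 and 341 CPM with vehicle (log2 change -1.28 ± 0.07, edgeR adjusted p = 9.7e-09), and Lect1, a cartilage factor against vessel growth that is in no list here, to 149.9, 158 and 144 CPM with EGF, against 462 and 438 CPM with vehicle. Of 25 chemokine and cytokine genes 6 rose and 1 fell, Csf1, and 2 fell without siCtrl replicate 2. Among the rises Spp1, osteopontin, stood at 8.19, 8.20 and 9.30 CPM with EGF, against 1.77 and 1.22 CPM with vehicle. Csf1, a growth factor of macrophages, changed by -0.50 ± 0.15, and was not called without siCtrl replicate 1 (-0.45) or siCtrl_EGF replicate 2 (-0.44).

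Matrix genes fell more often than they rose, 26 against 15 of 77, with 7 rises without siCtrl replicate 1. Col15a1, a collagen of basement membranes, stood at 26.1, 23.6 and 27.7 CPM with EGF, against 2.38 and 2.58 CPM with vehicle (log2 change 3.38 ± 0.13, edgeR adjusted p = 3.0e-10). Olfml2b, an olfactomedin-like matrix protein, fell to 18.1, 16.0 and 14.5 CPM with EGF, against 76.1 and 80.4 CPM with vehicle (log2 change -2.27 ± 0.09, edgeR adjusted p = 5.1e-10). Proteases and inhibitors in the extracellular space had 15 rises and 11 falls among 72, with 18 falls without siCtrl replicate 2. Serpinf2, the inhibitor of plasmin, had 78.5, 69.6 and 79.8 CPM with EGF, against 16.5 and 14.6 CPM with vehicle. Pcsk6, a convertase that cuts growth factor precursors and is held in the list for granule release, stood at 176, 149 and 181 CPM with EGF, against 37.5 and 55.2 CPM with vehicle. Prss23 lay at 17.1, 18.1 and 16.4 CPM with EGF and at 65.2 and 60.4 CPM with vehicle (log2 change -1.87 ± 0.07, edgeR adjusted p = 3.3e-10).

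Promoters were searched because AP-1 factors, which the EGF pathway is known to switch on, bind a short motif. The windows show where that motif stands in genes described above that rose (Plaur, Prok2 and Bcat1) and that fell (Prss23 and Reg1). They are 30 bases each, 5′ to 3′ on the gene's strand, from RefSeq promoters of build GRCm38.p6, with TGANTCA in capitals.
Plaur: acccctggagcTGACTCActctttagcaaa
Prok2: gctgcctggcgTGAGTCAccgcggggctcg
Bcat1: gaggtagcaaaTGAATCAaagacgctttca
Prss23: ggtcaccaggcTGACTCAgtcccccaggtg
Reg1: gccaggttttgTGAGTCAgggacccatgca
They lie at chr7:24462403-24462432 (+), chr6:99726441-99726470 (-), chr6:145076163-145076192 (-), chr7:89518332-89518361 (-) and chr6:78425855-78425884 (+), and the motifs begin 69, 67, 24, 146 and 117 bases before an annotated start site. Prss23 has a further annotated start from which the same motif lies 169 bases away. The motif was looked for on both strands in 250 bases before to 50 after each start. It occurred in 10.0% of the genes that rose at least 2-fold, in 8.12% of those that fell at least 2-fold and in 6.0% of all genes tested, and in 7.81% of all promoters searched. A gene was counted if any of its promoters held the motif, whereas the last share is per promoter. A promoter was matched by symbol for 68.8%, 69.0% and 71.1% of these gene groups, so the shares describe only part of them. Promoters of a single chromosome were left out of the search, and its genes count as unmatched. CACGTG, the E-box bound by MYC and MAX, occurred in 16.6%, 13.7% and 11.9%, and CCGGAAG, an ETS motif, in 6.99%, 4.7% and 19.1%, against 7.15% and 8.86% of all promoters searched. An occurrence of the letters is a description and does not show binding.

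The same EGF treatment was given to cells with siRNAs against Arid1a, in 6 libraries that the comparison above does not use for its means. Of the 2237 genes higher with EGF in control cells, 1480 were also called higher there, and of the 2507 lower, 1182 were called lower. Over all genes tested, 3119 were called there in either direction (23.4%). By size of the change in control cells, that share was 45.9% of 2597 genes under 0.5, 68.2% of 1475 from 0.5 to 1, 65.8% of 550 from 1 to 2 and 83.6% of 122 at 2 or more, and 95.8% to 98.4% had the same sign, against 82.2% of all genes tested. The difference between the EGF responses was itself called for 125 of the 4744 genes, 25 of them among the 122 with the largest changes. Gprc5a had nearly the same log2 change in both settings, 3.07 ± 0.11 with control siRNA and 3.14 ± 0.10 with Arid1a siRNAs. Slc7a5 changed by 0.75 with control siRNA and by 0.69 with Arid1a siRNAs.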

How the data were processed

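RNA was measured by RNA-seq in 266-6 cells. The deposited count files hold unnormalized reads per gene for each library. TopHat2 2.1.1, HTSeq 0.9.1, Cuffnorm 2.2.1.2, Cuffdiff 2.2.1.5 and the build mm9 are named, per the submitters' processing notes, with no role given. The deposited FPKM values, normalized by the authors to gene length and library size, were used only to compare genes per length; 9 value columns of that table were not used.

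Counts of all 11 libraries were fitted in R 4.3.3 with edgeR 4.0.16 (limma 3.58.1), with 4 group means, TMM scaling, filterByExpr (minimum count 10, minimum total 15), robust dispersions and the quasi-likelihood test. The contrast was siCtrl_EGF minus siCtrl, with Benjamini-Hochberg adjustment at 0.05. Of 23284 listed genes 13343 were tested, holding 99.96% of reads. The 5 libraries compared held 13547278 to 19773007 counted reads, and the other 6 held 10279763 to 15710575. The standard error is the log2 change over the square root of F. On simulated counts for 13083 genes of this contrast, 70.1% of 1.5-fold, 91% of 2-fold and 98.5% of 4-fold changes were recovered. In that simulation 17 unchanged genes were called too, and the changed genes were picked among those with a mean count of at least 10. Its counts were drawn independently between genes, whereas in the data the main component held 55.3% of the within-group spread. The recovery may therefore be too favourable for the data. DESeq2 1.42.0 and other settings were alternatives.

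The members, gene lists and tests were chosen with earlier results of these data known. Genes were named by a rule: the 4 largest rises and falls per family at 3 log2 CPM or more, the 2 largest per level class, the 5 that gained and the 5 that lost most CPM, the called member of each described list with the smallest p in each direction, and Egfr, Dusp6, Arid1a and Cpa1. It gave 154 genes, not all of them described, and some are not reported here; other genes in the text were chosen after their values were seen. Intervals and floors cover counting error only.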

Additional observations from a re-analysis of the deposited data

Results flagged for a closer look

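For 28 genes named here, the log2 change with EGF differed between cells with control siRNA and cells with Arid1a siRNAs, by edgeR's interaction test with adjusted p-values of 1.9e-04 to 0.047. Values are the EGF effect with control siRNA minus that with Arid1a siRNAs, and both effects had the same sign for each gene except Vim. Among genes that rose with control siRNA, the difference was 1.24 for Abcc9, 1.12 for Has2, 1.08 for Col15a1, 1.06 for Hbegf, 1.02 for Klf4, 0.94 for Dusp6, 0.79 for Serpinf2, 0.70 for Tnfrsf12a, 0.62 for Kcnj8, 0.60 for Slc19a1, 0.60 for Stc1 and 0.35 for Shmt1. Among genes that fell, it was -2.03 for Nkx6-1, -2.03 for Cyp2s1, -1.39 for Pcdh8, -1.26 for Adrb1, -1.09 for Olfml2b, -1.01 for Grhl3, -0.82 for G0s2, -0.74 for Sstr2, -0.70 for Prss23, -0.68 for Penk, -0.64 for Acacb, -0.54 for Lect1, -0.53 for Fgfr2, -0.52 for Rab3il1, -0.41 for Vim and -0.39 for Kcnh2. Over all genes tested the difference was called for 126, and many of those given here were named for their large change with control siRNA. Vim changed by -0.29 with control siRNA and by 0.13 with Arid1a siRNAs.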

How the results depend on the processing

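No called gene was called in the opposite direction under any alternative. Against 4744 calls, there were 4755 with RLE size factors, 4317 with DESeq2, 4564 without a filter on low counts, 4243 with only the 5 libraries compared, and 3648 to 4186 with each library left out. With the replicate number as a block there were 4063. Of the 4744 calls, 79.7% to 84.1% were kept with an EGF library left out, and a smaller share with a vehicle library left out. Same-numbered libraries of the groups had correlations of -0.44 and -0.71 between their deviations from the group means, so the numbers are not shown to pair the samples. Differently numbered libraries had correlations of -0.42 to 0.71, the highest between siCtrl_EGF replicate 2 and siCtrl replicate 1. The cause of this shared spread was not tested. A covariate for the main component of within-group spread, added after seeing the data, gave 6799 calls. The count of transcription factors called higher, 90, was 58 to 85 with each library left out and 139 with that covariate; the cause was not tested. That covariate also moved the rises of KRAB-type and numbered zinc finger genes to 46, of STAT to NFAT factors to 12, of granule release to 21, of transport to the Golgi to 32 and of matrix genes to 23. With it the falls of transport to the Golgi numbered 14, of proteases and inhibitors 22, of cholesterol synthesis 4, of chemokines and cytokines 2 and of entry into the endoplasmic reticulum 1. Of the comparisons of named genes with an alternative, 2929 kept their direction and side of the threshold, 32 lost the call and 7 gained one. Depth limits the genes under 1 log2 CPM, where the median standard error was 0.385.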

Other observations

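Genes of the G2 and M phases of the cell cycle were lower with EGF: 25 of 36 tested fell (69.4%, against 18.8% of all genes tested) and none rose. Their median log2 change was -0.27, and their summed level was 6139.76 to 6314 CPM with EGF and 7437 to 7536 CPM with vehicle. Of 79 tested genes for cytosolic ribosomal proteins 11 rose and none fell. The share that rose, 13.9%, was below the 16.8% of all genes tested. Without siCtrl_EGF replicate 2 and siCtrl_EGF replicate 3, 5 and 7 rose, and fewer rose without siCtrl replicate 2 as well. With the covariate for within-group spread 36 rose.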
